A study of Homo sapiens with 8 samples.

Results

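Hepatocytes dispose of nitrogen from amino acids as urea, and 9 genes of this work were listed as a set: CPS1, ASS1, ASL, ARG1 and OTC for the urea cycle, and TAT, HPD, TDO2 and GLS2 for the breakdown of tyrosine, tryptophan and glutamine. They were chosen by gene symbol in the table of expression values, which left 7 of 9 genes among 17561, since OTC and TDO2 are not analysed here. The cells were HepG2, a human hepatocarcinoma line that keeps many traits of hepatocytes, grown with 50 nM dexamethasone, 20 mU/ml bovine insulin, 10% serum and 2 mM glutamine, and harvested 48 h after transfection. The groups were cells given pGRHL2, which encodes flag-tagged GRHL2 under an EEF1A1 promoter together with enhanced green fluorescent protein, and cells given the pcDNA3 vector, with 4 libraries for each plasmid numbered 1 to 4. The plasmids therefore differed in more than GRHL2, and the share of cells that took up a plasmid was not part of the values. Cells of these bulk libraries were profiled together, so that fewer cells expressing a gene and less RNA per cell cannot be told apart.

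The urea cycle joins ammonia and bicarbonate in mitochondria (CPS1), passes the product to ornithine (OTC) and then uses ASS1, ASL and ARG1 in the cytosol to add aspartate, release fumarate and cleave arginine into urea and ornithine. TAT and HPD catalyse consecutive early steps of tyrosine breakdown, TDO2 opens the ring of tryptophan, and GLS2 is the liver-type glutaminase that frees ammonia from glutamine. In liver these enzymes mark mature hepatocytes, and several respond to glucocorticoids, TAT being a classical example. GRHL2 is a transcription factor of epithelial cells, and the study asked whether its ectopic expression moves hepatocytes towards a cholangiocyte-like state. The listed genes address the hepatocyte side of that question.

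Values are on a log2 scale and relative to transcript length, as the authors deposited them. For every gene, the same-numbered pGRHL2 and pcDNA3 libraries shared 1 mean across the 4 numbers, so that the libraries were compared as 4 pairs, and a gene whose pairs all pointed in 1 direction was also a gene whose groups did not overlap. Differences are given as log2 fold change (log2 FC, pGRHL2/pcDNA3) ± SD of the 4 pair differences, with the adjusted p of limma over all 17561 genes. An exact two-sided sign-flip test of a single gene cannot go below 1 in 8 with 4 pairs, so that it could not reach the threshold of 0.05. GRHL2 itself checked the labels: it lay between 16.22 and 16.87 in the pGRHL2 libraries and between 6.61 and 7.25 in the pcDNA3 libraries. Library medians were between 6.71 and 6.73. The depth behind each value is unknown, since the table holds no counts.

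No listed gene was called. In the limma fit blocked on replicate number, 0 of the 7 genes had an adjusted p under 0.05, where 2.19% of all genes were called (1.69% higher and 0.501% lower in pGRHL2). At an unadjusted p under 0.05, 1 of the 7 passed (HPD), where 16.0% of all genes did (9.17% higher and 6.78% lower). The 95% confidence intervals of the 7 differences together ran from 0.91-fold to 1.29-fold in the deposited values. Differences beyond that range lay outside the interval of each gene. Values of weak genes such as ARG1 and GLS2 are pulled towards their mean, so their intervals do not bound a change in RNA. Groups did not overlap for 2 of the 7 genes, ASS1 and HPD, both higher in pGRHL2, where 24.0% of all genes had groups apart and 13.4% were higher in this way. The median log2 FC of the 7 genes was 0.05, against 0.0017 over all genes, and 5 of 7 had a positive log2 FC, against 51.5% of all genes. Without replicate 2, the median was 0.0060 and 4 of 7 were positive. Without replicates 1, 3 and 4 in turn, it was 0.08, 0.03 and 0.09, with 5, 5 and 6 of 7 positive.

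**Figure D1:**
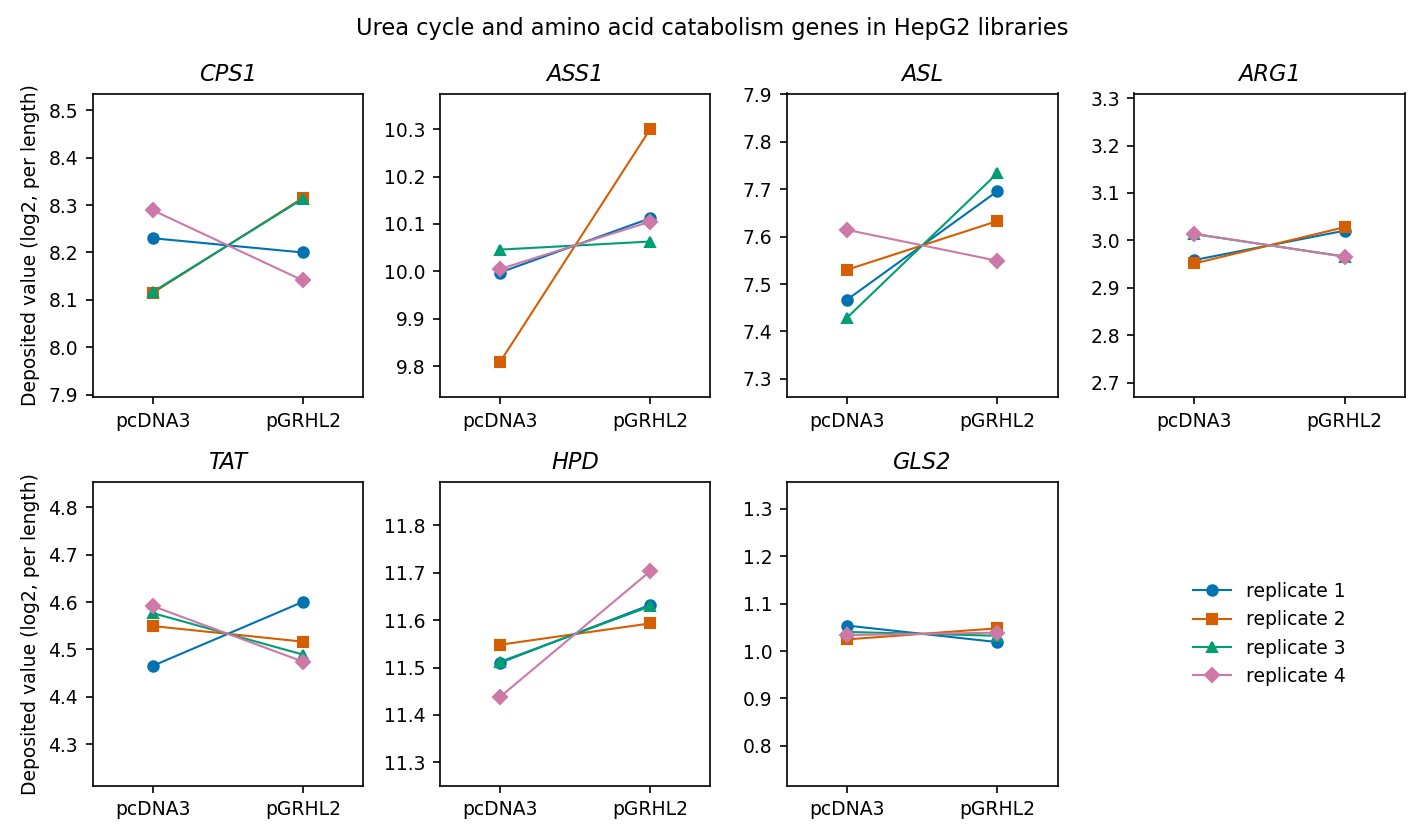
Deposited log2 values per length of the 7 genes in pcDNA3 and pGRHL2 libraries, with same-numbered libraries joined by a line; each panel spans the same height on the log2 scale around its gene's mean. Lines rise from pcDNA3 to pGRHL2 in 4 of 4 pairs for ASS1 and HPD, whereas each of the other genes has at least 1 line that falls.

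Promoter windows of the genes that stand for these patterns are shown before their values, since their base composition differs widely. The windows are the 250 bases before a RefSeq start site (GRCh38.p14), written 5′ to 3′ on the gene's strand, and capitals mark every match, on either strand, to 1 of 3 short motifs: AACNNGTT, the core of the Grainyhead site, TATAAA, the TATA box, and GGGCGG, the GC box bound by Sp1-type factors. No base of these windows belonged to more than 1 of the 3 motifs. ASS1 and HPD are shown because their groups did not overlap. Among the windows found for the listed genes, ARG1 held the only TATAAA match and CPS1 the only AACNNGTT match, so these are shown too. Motifs and windows were picked after the values were seen.

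ASS1, chr9:130444711-130444960, plus strand: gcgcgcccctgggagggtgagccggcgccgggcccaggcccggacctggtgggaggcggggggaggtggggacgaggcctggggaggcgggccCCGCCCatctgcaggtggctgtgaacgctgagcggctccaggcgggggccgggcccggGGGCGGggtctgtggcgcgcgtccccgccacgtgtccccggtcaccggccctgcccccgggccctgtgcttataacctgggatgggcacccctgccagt
HPD, chr12:121858860-121859109, minus strand: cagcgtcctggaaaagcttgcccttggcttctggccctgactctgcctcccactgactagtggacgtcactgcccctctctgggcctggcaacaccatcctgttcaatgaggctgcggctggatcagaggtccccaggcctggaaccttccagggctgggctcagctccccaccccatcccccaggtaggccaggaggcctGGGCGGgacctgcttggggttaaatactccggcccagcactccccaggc
ARG1, chr6:131572976-131573225, plus strand: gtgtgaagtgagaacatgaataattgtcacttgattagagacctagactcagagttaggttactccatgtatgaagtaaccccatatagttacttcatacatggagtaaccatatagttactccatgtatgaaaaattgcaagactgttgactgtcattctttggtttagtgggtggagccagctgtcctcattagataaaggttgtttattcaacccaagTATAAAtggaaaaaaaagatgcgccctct
CPS1, chr2:210593105-210593354, plus strand: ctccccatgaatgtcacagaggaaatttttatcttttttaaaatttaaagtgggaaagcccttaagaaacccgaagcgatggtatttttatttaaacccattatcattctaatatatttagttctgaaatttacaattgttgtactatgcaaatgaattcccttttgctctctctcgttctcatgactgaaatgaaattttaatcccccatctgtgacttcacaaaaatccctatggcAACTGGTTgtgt

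Windows were found for 6 of the 7 genes, 10 windows in all. TAT had no window, so its promoter was not searched for any motif. AACNNGTT occurred in 1 of these 10, the printed CPS1 window, in which AACTGGTT begins 12 bases before the start site, and in 3.0% of the 35116 windows of all genes. That CPS1 start lies 36756 bases from the start of the canonical transcript in GENCODE. The other 2 CPS1 windows, at starts 36881 and 78914 bases from it, held no match. No CPS1 window therefore stood at the canonical start, and that stretch was not searched. The full palindrome AACCGGTT, a special case of AACNNGTT, was in 0 of the 10 windows and in 0.117% of all. TATAAA was found in the ARG1 window alone among these 10 windows (10.7% of all windows). GGGCGG was found in 6 of 10 windows, those of ASS1, ASL, HPD and GLS2 (42.6% of all). The printed ASS1 window had 24 CpG dinucleotides and the ASL window 22, compared with 5 for the printed HPD window, 29 for the other HPD window, 1 for ARG1 and a median of 11 over all windows. These matches describe the letters of the windows, and binding was not measured in these libraries.

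The genes of the urea cycle come first, in the order of their reactions. CPS1 (chromosome 2, 210477682 to 210679107, plus strand of hg38) makes carbamoyl phosphate and commits ammonia to the cycle. Its values were 8.20, 8.32, 8.31 and 8.14 in pGRHL2 libraries 1 to 4, and 8.23, 8.11, 8.12 and 8.29 in pcDNA3 libraries 1 to 4. The groups overlapped, with pGRHL2 higher in pairs 2 and 3 and lower in pairs 1 and 4. The log2 FC was 0.05 ± 0.17 (SD over 4 pairs; adjusted p = 0.791 in limma), with a 95% confidence interval of -0.11 to 0.22.

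ASS1 (chromosome 9, 130444961 to 130501274, plus strand) joins citrulline to aspartate and is the step that limits arginine synthesis in many cells. Its values in pGRHL2 libraries 1 to 4 were 10.11, 10.30, 10.06 and 10.10, and those in pcDNA3 libraries 1 to 4 were 10.00, 9.81, 10.05 and 10.00. Every pGRHL2 library was above every pcDNA3 library, but the pair differences were uneven, at 0.11, 0.49, 0.02 and 0.10. The mean difference was a log2 FC of 0.18 ± 0.21 (SD, n = 4 pairs), larger than that of any other listed gene and smaller than its own spread, with a limma adjusted p of 0.324 and a confidence interval of -0.0036 to 0.37. Without replicate 2, the log2 FC was 0.08 (adjusted p = 0.731 in limma). Pair 2 was also the pair in which 8 of 8 hepatocyte markers were higher in pGRHL2, with a median difference of 0.29, whereas 2, 1 and 2 of these markers were higher in pairs 1, 3 and 4. The part of this shift in the ASS1 value was not tested. The family of ASS1 processed pseudogenes counts 14 in GENCODE, all of which aligned to the ASS1 transcript at 88.2% to 93.9% identity, so that reads shared with them make its value less certain. ASS1P2, the only pseudogene of them in the table, had a mean value of 2.66 and a log2 FC of 0.03 ± 0.03.

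ASL (chromosome 7, 66075800 to 66094697, plus strand) splits argininosuccinate into arginine and fumarate. Its pGRHL2 values were 7.70, 7.63, 7.73 and 7.55 and its pcDNA3 values were 7.47, 7.53, 7.43 and 7.61. It was higher in pairs 1 to 3 and lower in pair 4, and the groups overlapped because of that pair. The log2 FC was 0.14 ± 0.16 (SD over 4 pairs; adjusted p = 0.367 in limma), which ranged from 0.09 without replicate 3 (adjusted p of 0.628) to 0.21 without replicate 4 (adjusted p of 0.161). ASLP1, a pseudogene of ASL, gave no alignment to the ASL transcript. It had a mean value of 1.02 and a log2 FC of -0.01 ± 0.02.

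ARG1 (chromosome 6, 131470832 to 131584332, plus strand), the cytosolic arginase that closes the cycle, was among the weak genes of the table. Its values were 3.02, 3.03, 2.97 and 2.97 in pGRHL2 libraries 1 to 4, and 2.96, 2.95, 3.01 and 3.01 in pcDNA3 libraries 1 to 4. Pairs 1 and 2 were positive and pairs 3 and 4 negative, which left a log2 FC of 0.01 ± 0.07 (SD over 4 pairs; adjusted p = 0.916 in limma). The rlog transformation pulls weakly expressed genes towards their mean, so the narrow spreads of ARG1 and GLS2 cannot be read like those of HPD or ASS1.

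Among the genes of amino acid breakdown, HPD (chromosome 12, 121839527 to 121863596, minus strand), which turns 4-hydroxyphenylpyruvate into homogentisate, had a difference larger than its spread over the pairs. It stood at 11.63, 11.59, 11.63 and 11.70 in pGRHL2 libraries 1 to 4, and at 11.51, 11.55, 11.51 and 11.44 in pcDNA3 libraries 1 to 4. The groups did not overlap, and the pair differences were 0.12, 0.05, 0.12 and 0.26. This gave a log2 FC of 0.14 ± 0.09 (SD, n = 4 pairs), or 1.10-fold, with a confidence interval of 0.02 to 0.26 and an unadjusted limma p of 0.029 that did not pass the adjustment (adjusted p of 0.246). HPD was called only when the replicate block was left out (adjusted p = 0.020 in limma), a fit with 6 in place of 3 residual degrees of freedom.

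TAT (chromosome 16, 71565660 to 71577092, minus strand) transfers the amino group of tyrosine in the step before HPD. Its values were 4.60, 4.52, 4.49 and 4.47 in pGRHL2 libraries 1 to 4, and 4.47, 4.55, 4.58 and 4.59 in pcDNA3 libraries 1 to 4. Pair 1 was positive, by 0.14, and the other 3 pairs were negative, so that the groups overlapped. The log2 FC was -0.03 ± 0.11 (SD over 4 pairs; adjusted p = 0.860 in limma). TAT shares 8.01% of its exon bases with its antisense gene TAT-AS1, which had a mean value of 0.44, and without strand their reads cannot be told apart there.

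GLS2 (chromosome 12, 56470944 to 56488414, minus strand) had values of 1.02, 1.05, 1.03 and 1.04 in pGRHL2 libraries 1 to 4, and of 1.05, 1.02, 1.04 and 1.03 in pcDNA3 libraries 1 to 4. The groups overlapped, and the difference was -0.0036 ± 0.024 on the log2 scale (SD over 4 pairs; adjusted p = 0.948 in limma). In GENCODE, 82.8% of its exon bases are shared with other genes, 77.1% with SPRYD4. The counting mode of the study sets aside reads that touch more than 1 gene, so that the level of GLS2 is uncertain beside those of other genes.

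**Figure D2:**
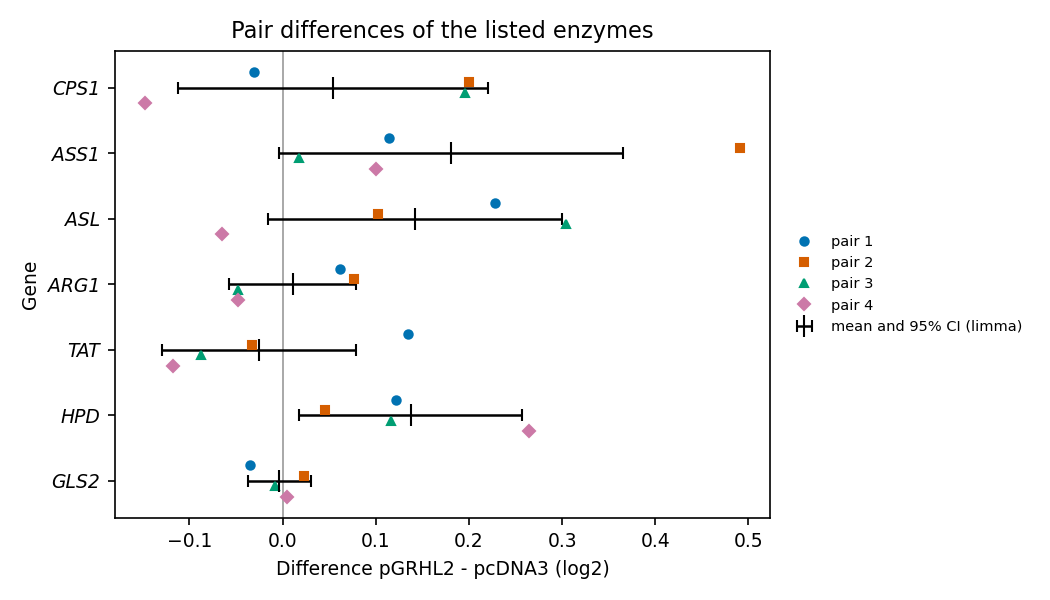
Differences of the 7 genes between pGRHL2 and pcDNA3 (log2), with 1 symbol for each pair and a bar for the mean and its 95% confidence interval from limma. The intervals of 6 genes include 0, and that of HPD runs from 0.02 to 0.26.

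The levels of the listed genes differed far more between genes than between plasmids. In 8 of 8 libraries the order was HPD, ASS1, CPS1, ASL, TAT, ARG1 and GLS2. Their mean values on the log2 scale per length were 11.57, 10.05, 8.21, 7.58, 4.53, 2.99 and 1.04, and each was clear of its neighbour: the closest pair, CPS1 and ASL, was apart by 0.63 on average, with a range of 0.50 to 0.76 over the libraries. HPD was above 97.0% of all genes and ASS1 above 88.2%, whereas ARG1 was above 25.0% and GLS2 above 10.4%. Lengths are the authors' means over all transcripts of a symbol, so that genes with many short transcripts are placed only roughly.

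For arginase, the table also held the isoenzyme that prevails outside the liver. ARG2, the mitochondrial arginase, had a mean value of 7.82 per length, above ARG1 by 4.83 on the log2 scale (4.65 to 5.02 over the libraries). Of the exon bases of ARG2, 39.6% are shared with VTI1B, which makes its level less certain. ARG2 was 7.85, 7.84, 7.92 and 7.98 in pGRHL2 libraries 1 to 4, and 7.79, 7.80, 7.73 and 7.66 in pcDNA3 libraries 1 to 4. It was higher in 4 of 4 pairs, by 0.15 ± 0.13 on the log2 scale (SD over 4 pairs; adjusted p = 0.299 in limma).

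**Figure D3:**
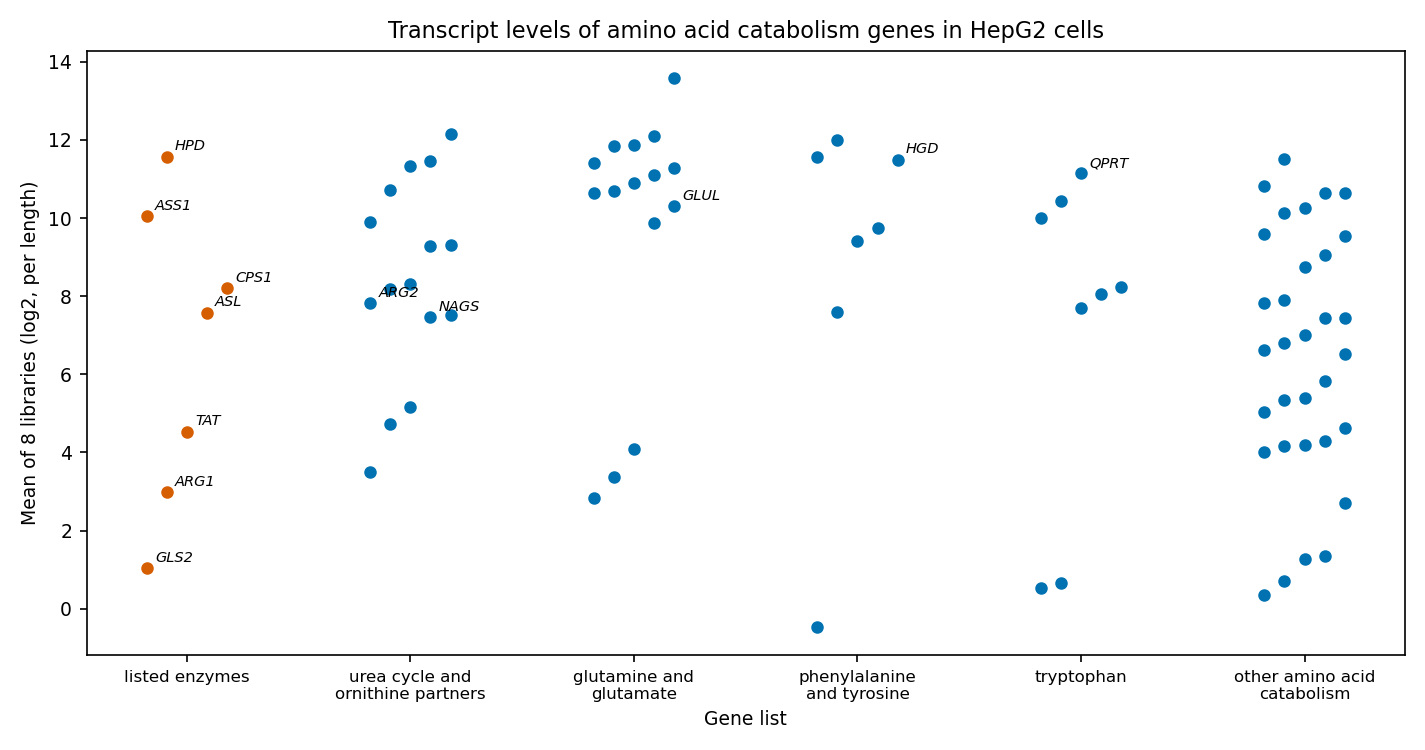
Mean value over 8 libraries (log2, per length) of the 7 listed genes and of the genes of 5 related lists, with 1 point for each gene and names for a few. HPD at 11.57 lies near HGD of the same pathway, while ARG1 lies below ARG2.

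The rest of the pathway was followed with 5 lists, which held 83 genes, 77 of them in the table. By limma, 0 of the 77 were called in either direction. At an unadjusted p under 0.05, 5 were higher and 1 was lower, where 9.17% and 6.78% of all genes were so. The median log2 FC was 0.0022. Groups did not overlap for 9 genes that were higher and 1 that was lower in pGRHL2, where 13.4% and 10.5% of all genes were so.

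The partners of the urea cycle and of ornithine were 15 genes in the table, among them NAGS, which makes the activator of CPS1, and the mitochondrial carriers SLC25A15 and SLC25A13. Of these, 0 were called and 1 (ARG2) passed an unadjusted p under 0.05, where 16.0% of all genes did. ARG2 and SLC25A15 were higher in 4 of 4 pairs, where 13.4% of all genes were so, and the median log2 FC was -0.01. NAGS had a log2 FC of 0.01 ± 0.22 and the ornithine carrier SLC25A15 one of 0.04 ± 0.04, with adjusted p of 0.963 and 0.782 in limma. The list of glutamine and glutamate genes had 15 members in the table, with 0 called and a median log2 FC of -0.0092. At an unadjusted p under 0.05, 1 was lower, where 6.78% of all genes were so. The only member of this list with groups apart was SLC38A5, a glutamine transporter, lower in 4 of 4 pairs (10.5% of all genes were so). Its mean log2 FC was -0.08 ± 0.05 (adjusted p = 0.519 in limma). Glutamine synthetase, GLUL, had a log2 FC of -0.02 ± 0.11.

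Around HPD and TAT, the 7 other genes of phenylalanine and tyrosine breakdown had 0 calls by limma, 0 at an unadjusted p under 0.05 and a median log2 FC of 0.02. HGD, the step after HPD, had a mean of 11.50 and a log2 FC of -0.02 ± 0.07. FAH, which ends the pathway, had a log2 FC of 0.02 ± 0.05. HPDL, an HPD-like gene with a mean value of -0.48, and GSTZ1, the maleylacetoacetate isomerase, were higher in 4 of 4 pairs (13.4% of all genes were so). The larger difference was that of GSTZ1, at 0.08 ± 0.06 (adjusted p = 0.562 in limma).

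For tryptophan, 8 of 11 listed genes were in the table, with 0 called by limma. Of the 8, 0 passed an unadjusted p under 0.05 (16.0% of all genes did) and 0 had groups apart (24.0% of all genes did). The log2 FC of the 8 ran from -0.15 to 0.07, the lowest being that of KYNU, kynureninase, at -0.15 ± 0.32. The list of other amino acid catabolism held 32 genes in the table, of which 0 were called. At an unadjusted p under 0.05, 4 were higher (9.17% of all genes were so), namely SDSL, UROC1, GNMT and BCKDHB. Groups were apart, with pGRHL2 higher, for SDSL, UROC1, GNMT, SDS and HYKK (13.4% of all genes were so). Most of these are named here after their values were seen. UROC1, urocanase of histidine breakdown, had a mean value of only 0.36, and SDS one of 0.72. BCKDHB, a subunit of the branched-chain keto acid dehydrogenase, was higher in 3 of 4 pairs at 0.16 ± 0.12 (adjusted p = 0.269 in limma). SDSL, a serine dehydratase-like enzyme, was higher in 4 of 4 pairs, by 0.12 ± 0.04 on the log2 scale (adjusted p = 0.209 in limma).

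Transcription factors and a receptor that act on these genes were listed as well. Among 13 regulators, all in the table, 0 were called by limma, 3 were lower and 1 was higher at an unadjusted p under 0.05 (6.78% and 9.17% of all genes), and the median log2 FC was -0.07. Groups did not overlap for 4 of 13 genes lower and 2 of 13 higher in pGRHL2, where 10.5% and 13.4% of all genes were so, among the latter GCGR, the glucagon receptor, whose mean value was 1.43. NR3C1 (chromosome 5, 143277931 to 143435512, minus strand), the glucocorticoid receptor, came closest to the threshold. Its values were 8.81, 8.87, 8.87 and 8.87 in pGRHL2 libraries 1 to 4, and 9.12, 9.06, 9.06 and 9.06 in pcDNA3 libraries 1 to 4. It was lower in 4 of 4 pairs, with a log2 FC of -0.22 ± 0.06 (SD, n = 4 pairs), or 0.859-fold, and an adjusted p of 0.090 in limma. The call was gained with arrayWeights (adjusted p = 0.047 in limma) and without the replicate block (0.0013), and was not reached in the other settings tried.

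The other regulators lower in 4 of 4 pairs were KLF15, ATF4 and FOXA1, named after their values were seen. KLF15, a glucocorticoid-responsive activator of amino acid breakdown, had a log2 FC of -0.15 ± 0.10, and ATF4, the factor of the amino acid response, one of -0.13 ± 0.08, with adjusted p of 0.146 and 0.183 in limma. FOXA1, a liver pioneer factor, stood at -0.07 ± 0.04 (adjusted p = 0.533 in limma).

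**Figure D4:**
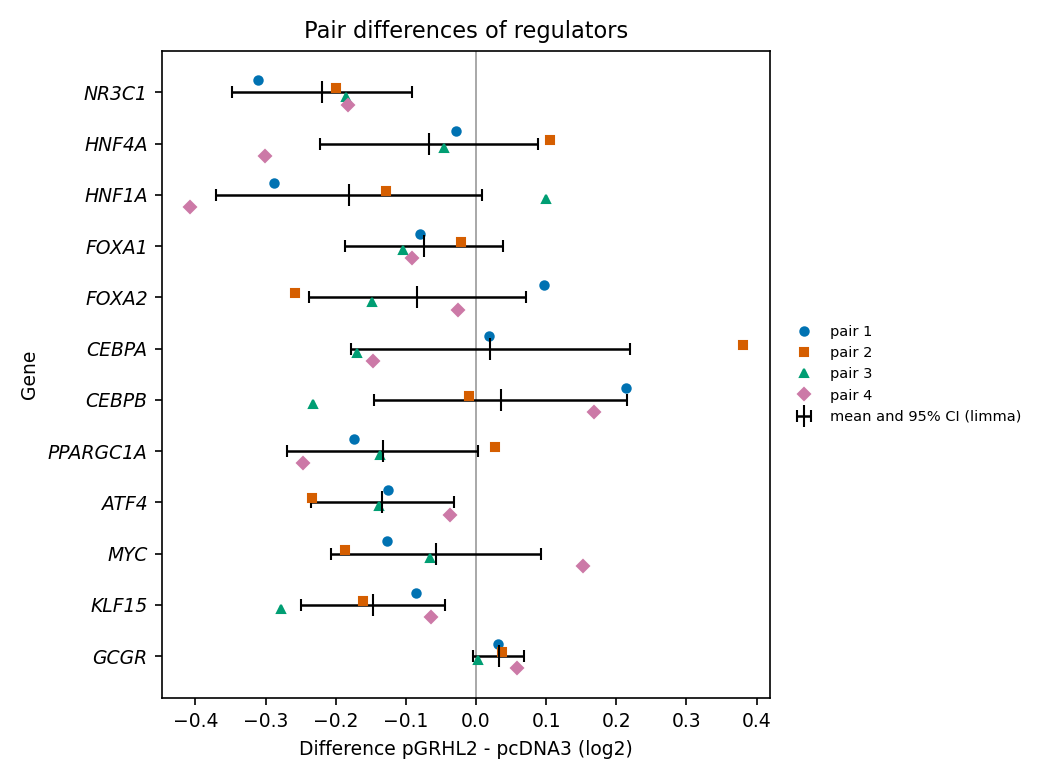
Differences of regulators between pGRHL2 and pcDNA3 (log2), with 1 symbol for each pair and a bar for the mean and its 95% confidence interval from limma. The 4 symbols of NR3C1 lie between -0.31 and -0.18, and its interval is the farthest from 0 among these genes.

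Markers of the cell types bear on how these values are read. Of 8 hepatocyte markers, 0 were called by limma and 0 passed an unadjusted p under 0.05, with a median log2 FC of 0.0030 and ALB and AFP at mean values of 16.88 and 17.11. This median rested on pair 2: without replicate 2 it was -0.07, with 7 of 8 markers lower in pGRHL2, and ALB was called lower at -0.15 (adjusted p = 0.029 in limma). Over all genes, that fit called 137 higher and 13 lower. Without replicates 1, 3 and 4 in turn, the median was 0.0183, 0.04 and 0.04, with 2, 1 and 1 of 8 markers lower. AFP is made by fetal rather than mature hepatocytes, and the list without it, an alternative chosen after the data were seen, had a median of -0.0030. Of 6 cholangiocyte markers, 0 were called, with 1 higher and 1 lower at an unadjusted p under 0.05 (9.17% and 6.78% of all genes were so). The higher marker was KRT7, at 0.19 ± 0.12 (adjusted p = 0.097 in limma). The summed hepatocyte marker level was 18.01 to 18.24 in pGRHL2 and 17.91 to 18.14 in pcDNA3 libraries (log2), or 16.96 to 17.21 and 16.88 to 17.14 without AFP, and that of the cholangiocyte markers was 14.12 to 14.45 and 14.02 to 14.36. These ranges do not follow the pairs. ALB and AFP, the strongest hepatocyte markers, were each higher in pGRHL2 in 1 of 4 pairs, pair 2, by 0.33 and 0.32. The part of the markers in the values of the listed genes was not tested. The lowest of the cholangiocyte markers was CFTR, at -1.07, and the lowest hepatocyte marker was CYP3A4, at 2.73.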

How the data were processed

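Per the labels and the methods the study gives for bulk RNA-seq, mRNA libraries of HepG2 cells were read from both ends and mapped to hg38 with HISAT2 (2.2.1 in the submitters' processing notes). The authors counted exonic reads with HTSeq 0.9.1 in union mode without strand, dropped rarely read genes, and divided rlog values of DESeq2 (1.40.2 in those notes) by mean transcript length. The methods do not give the scale of this division. Differences are read here as log2 FC, which holds if log2 length was subtracted. The deposited values are on a log2 scale although named as FPKM: 3.71% were below 0, and in 2965 genes with an SD under 0.02 they had a slope of -0.83 on log2 length. Their file also held 1 stray character, which was dropped, and 0 columns of further samples.

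Same-numbered libraries had 1 mean across all 4 numbers in each of 17561 genes (within 1.53e-13), a step the methods do not describe. Their deviations mirror each other by construction, so that a check of the pairing by correlation is void, and the replicate number was taken from the labels. The study describes the 4 replicates as biological and independent of each other, while the labels give only their numbers.

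All genes were fitted with limma 3.58.1 in R 4.3.3 (eBayes with trend, replicate number as block, 3 residual degrees of freedom), with Benjamini-Hochberg adjustment and a threshold of 0.05. The fit was tested on simulated data, where its share of false calls varied with the way the noise was simulated. In most of these simulations, among them the version kept, the share was above the threshold of 0.05. Alternatives comprised no replicate block, arrayWeights, eBayes with the robust option, a pair of rescalings, removal of a trend on level (natural spline, 5 degrees of freedom), a mean value of at least 5, an adjusted p under 0.01 and leaving out each replicate. Exon overlap, pseudogenes and coordinates are from GENCODE release 44 (hg38), with minimap2 2.31-r1302 for alignments. Promoter sequences are from RefSeq.

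Named genes were the listed genes, GRHL2, and from each related list every called gene and the largest increase and decrease among genes with 1 sign in 4 of 4 pairs. Further genes are named for their role, and a few genes are not reported here. The members and lists were chosen with earlier results of these data known.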

Additional observations from a re-analysis of the deposited data

Results flagged for a closer look

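Libraries of a pair mirror each other, so that a library standing apart in its group was looked for among the 4 pair differences of a gene. For 2 of 19 genes, 1 pair stood apart from the rest, and chance would give about 1 in 20. NR3C1 had a pair 1 difference of -0.3111, while pairs 2 to 4 lay between -0.1989 and -0.1824, and its log2 FC was -0.19 without replicate 1. GSTZ1 had a pair 4 difference of 0.1679, while pairs 1 to 3 lay between 0.036 and 0.058, and its log2 FC was 0.04 without replicate 4.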

How the results depend on the processing

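The fit without the replicate block called 1 of the 7 listed genes (HPD, with a log2 FC of 0.1374 and an adjusted p of 0.020), 7 of 77 pathway genes, 6 of 13 regulators and 2 of 14 markers. Over all 17561 genes it called 1821 higher and 1427 lower, and these counts are the background for those of the lists. It treats the paired values as independent. With arrayWeights, 1 regulator (NR3C1), 503 higher and 221 lower genes were called. Where the reported fit called 297 genes higher and 88 lower, scaling libraries to an equal sum of all genes but GRHL2 gave 495 higher and 93 lower. Removing the trend on level, with the replicate block kept, gave 191 higher and 62 lower, and a mean value of at least 5, which drops ARG1, TAT and GLS2, gave 63 higher and 81 lower, so that lower genes then outnumbered higher ones. At an adjusted p under 0.01, 77 were higher and 10 lower. The listed genes called were 0 in each of the blocked fits.

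Small differences changed sign. ARG1 was -0.0078 with the level trend removed, TAT was 0.0093 with arrayWeights, and GLS2 was 0.0099 after rescaling, none of them called. When single replicates were left out, the log2 FC ranged from 0.0060 to 0.12 for CPS1, 0.08 to 0.24 for ASS1, 0.09 to 0.21 for ASL, 0.09 to 0.17 for HPD, -0.0113 to 0.0303 for ARG1, -0.0791 to 0.0049 for TAT and -0.0126 to 0.0068 for GLS2. In these fits 79 to 156 genes were higher, 8 to 68 were lower, and 0 to 1 markers were called, ALB, lower by a log2 FC of -0.1481 without replicate 2. The cause of these changes was not tested, apart from the fewer pairs. Depth is unknown, and weak genes are shrunk.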

Other observations

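The pattern of the 7 listed genes over the pairs was a mean difference of 0.09, 0.13, 0.07 and -0.0012 in pairs 1 to 4. Among 5675 genes outside the lists with a mean value of at least 5 and a spread at least as large as that of the median listed gene, the 3 most alike by Pearson correlation over the 4 pair differences were CENPE, a kinetochore motor, ACBD4, an acyl-CoA binding protein, and SLC35D1, a nucleotide-sugar transporter. Their correlations were 0.9999, 0.9999 and 0.9998, over 4 points that share libraries, and their log2 FC were -0.06 ± 0.19, 0.13 ± 0.14 and -0.03 ± 0.17, none of them called by limma (adjusted p of 0.779, 0.394 and 0.919). With 4 points and this many genes, values close to 1 describe the ordering of the pairs and nothing more.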
